A study of Homo sapiens with 6 samples.

Results

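The genes described here are 10 genes of the Wnt pathway among the 20263 genes of the deposited table. They are the feedback genes RNF43, ZNRF3, AXIN2 and NKD1, the ligand gene WNT16, the R-spondin receptor genes LGR4 and LGR5, and the transcription factor genes TCF7, LEF1 and SP5. RNF43 and WNT16 were picked because they were among the largest rises in the comparison of CSE with WT. The other 8 were listed beside them for their role, with results of these data known. For these 10 genes the comparison is therefore a description, and no p-value is printed for them. Where a member is said to be called, this tells only its side of the threshold used for all genes. It is no test of the member.

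HCT116 is an established human colorectal cancer cell line, and mRNA-seq was done on 6 samples of it. The 3 samples called WT are the parental line without treatment, where WT names no genotype contrast. The 3 samples called CSE are the same line after CSE treatment. The letters are taken to mean cigarette smoke extract, since the series title names smoking. Neither the dose, the exposure time nor the solvent control is known from the labels. Nor do they say whether samples came from separate cultures, so the p-values reflect no more than sample-to-sample spread, which may be technical.

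Wnt ligands are secreted lipid-modified proteins that bind Frizzled receptors with the co-receptors LRP5 and LRP6. In the canonical branch this stops the destruction complex of APC, AXIN and GSK3 from degrading beta-catenin, which then works with TCF and LEF factors at target genes. RNF43 and ZNRF3 are membrane ubiquitin ligases that mark Frizzled for removal, and R-spondins bound to LGR receptors take these ligases out of action. RNF43, ZNRF3, AXIN2, NKD1, LGR5, SP5, TCF7 and LEF1 are textbook targets of the pathway in the intestine, several of which damp it. HCT116 carries an activating mutation of CTNNB1, the beta-catenin gene, so part of the canonical pathway runs without a ligand in this line.

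Promoter sequences are shown for RNF43 and WNT16, the genes with the highest differences, and for SP5, where the 6 letters searched were found. Windows of 6 of the 10 members were searched. They are from RefSeq (GRCh38.p14), on the strand of the gene, 5′ to 3′, without bases that GENCODE 29 places in an exon. The RNF43 and SP5 stretches lie upstream of the gene, and that of WNT16 lies upstream of a RefSeq start, within the longer GENCODE span of the gene. Capitals mark CTTTGA, a form of the core letters of the TCF/LEF motif, or the same letters on the other strand, where they read TCAAAG. Only this form was searched. The letters CTTTGT, which stand in the RNF43 and SP5 stretches, were not searched and are not marked.
RNF43, chr17:58417596-58417784, minus strand: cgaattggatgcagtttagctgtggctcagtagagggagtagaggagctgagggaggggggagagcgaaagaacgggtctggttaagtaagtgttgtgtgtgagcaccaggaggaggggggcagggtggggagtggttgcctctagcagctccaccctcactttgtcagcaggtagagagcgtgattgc
WNT16, chr7:121328750-121328999, plus strand: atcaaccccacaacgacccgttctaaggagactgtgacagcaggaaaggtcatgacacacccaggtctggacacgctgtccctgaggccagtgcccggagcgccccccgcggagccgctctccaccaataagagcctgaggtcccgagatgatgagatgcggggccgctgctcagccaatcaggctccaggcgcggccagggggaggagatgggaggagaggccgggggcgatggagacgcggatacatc
SP5, chr2:170715087-170715336, plus strand: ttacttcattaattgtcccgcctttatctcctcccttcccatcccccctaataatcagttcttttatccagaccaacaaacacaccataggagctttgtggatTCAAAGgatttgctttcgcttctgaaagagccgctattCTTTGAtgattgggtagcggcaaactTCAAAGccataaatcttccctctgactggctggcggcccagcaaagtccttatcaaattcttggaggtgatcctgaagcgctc

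The search covered 250 bases before to 50 bases after each start, on both strands, and no matches overlapped. In the SP5 window 3 matches began 147, 109 and 83 bases before the start. The 2 windows of RNF43, the 1 of WNT16, the 2 of TCF7 and those of LGR4 and LEF1 held no match. Over all 35116 windows in the RefSeq table, 12.9% held at least 1 match and 0.0997% held 3 or more. A match describes letters in this window, and the lack of one says only that they are not there. RefSeq windows for ZNRF3, LGR5, AXIN2 and NKD1 were not used here.

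The libraries separated by treatment, with 76.9% of the variance on the first principal component. Of the colon epithelium markers EPCAM, CDH1, KRT8, KRT18 and KRT19 were all above 100 TPM, CDX2 lay at 8.29 to 10.54 TPM and KRT20 at 3.75 to 5.68, while VIL1, LGALS4 and CEACAM5 stayed at or below 0.37. The 5 leukocyte markers summed to 18.95 to 19.1 TPM in WT and 12.52 to 13.37 in CSE, nearly all from CD68, with PTPRC at or below 0.03 TPM. The 5 fibroblast markers summed to 43.88 to 45.95 and 38.04 to 38.66 TPM, nearly all from COL1A1, with DCN listed at 0, and the 4 endothelial markers to 0.75 to 1.22 and 1.31 to 1.53 TPM. CD68 (log2 difference -0.50, limma adjusted p = 2.59e-07) and COL1A1 (-0.23, 0.00025) were lower in CSE, and their part in the results was not tested. In bulk RNA fewer cells of a type and less RNA per cell cannot be told apart. Mitochondrially encoded genes took 27.0% to 30.2% of the TPM in WT and 25.5% to 25.8% in CSE. TPM is a share of the library and keeps no depth, so the depth is unknown and no counting interval is given. With mitochondrially encoded genes left out the median log2 difference of all genes moved from -0.0039 to -0.059, and the higher calls fell from 48.9% to 34.1% of all calls.

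In the members RNF43 and WNT16 stood far above the rest. A gene entered the test with at least 1 TPM in at least 3 libraries, which 8 of the 10 members passed and LGR5 and LEF1 did not. In limma's model over all 12793 genes, at an adjusted p under 0.05, 2 members were called higher in CSE (RNF43 and WNT16) and 2 lower (AXIN2 and NKD1). Over all genes tested 24.5% were called higher and 25.6% lower, 50.1% in all. Of the 8 members tested, 2 had all CSE samples above the WT samples and 3 had all below, against 27.5% and 29.9% of all genes tested (57.4% in all). The members were picked on this comparison, so nothing is read from these counts.

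**Figure D1:**
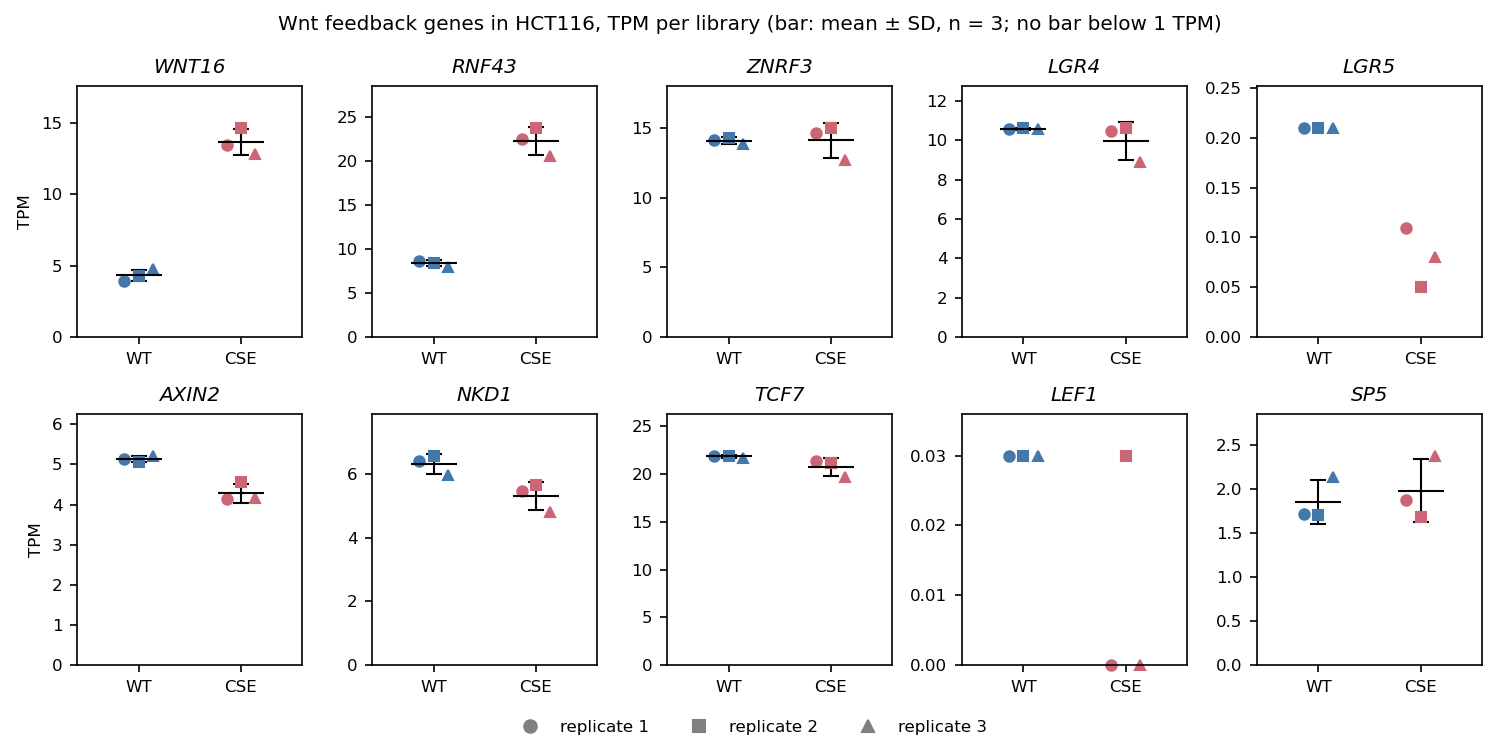
TPM of the 10 genes in each WT and CSE library, on linear axes that start at 0 and differ between panels, with symbols for the replicate number and bars for mean ± SD (n = 3), drawn only for genes above 1 TPM. RNF43 and WNT16 lie well apart between the groups (8.03 to 8.70 against 20.63 to 23.8 TPM, and 3.94 to 4.75 against 12.86 to 14.67 TPM), while the WT and CSE points of ZNRF3, LGR4, LEF1 and SP5 overlap.

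WNT16 is a ligand that can act through canonical and non-canonical branches and is known for its role in bone and in blood stem cell formation (ENSG00000002745, chromosome 7, 121325367 to 121341104 on GRCh38, plus strand). It was at 3.94, 4.32 and 4.75 TPM in WT and at 13.5, 14.67 and 12.86 TPM in CSE. Every CSE sample lay above every WT sample. The means were 4.34 ± 0.405 and 13.7 ± 0.918 TPM (SD, n = 3 each), 3.15-fold higher in CSE, and the log2 difference on the log2(TPM + 1) scale was 1.46 (SE 0.0726). That scale understates the change of low genes, and with a pseudocount of 0.1 the log2 difference was 1.64. In the ranking of all 12793 genes by this difference WNT16 was number 4 and RNF43 number 5.

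RNF43 is the feedback ligase that is often mutated in colorectal cancer (ENSG00000108375, chromosome 17, 58352500 to 58417595, minus strand). Its values were 8.7, 8.47 and 8.03 TPM in WT and 22.56, 23.8 and 20.63 TPM in CSE. The groups did not overlap, and the lowest value in CSE was that of replicate 3. From means of 8.40 ± 0.340 and 22.3 ± 1.60 TPM it was 2.66-fold higher in CSE (log2 difference 1.31, SE 0.0619). Over all alternative settings, including the removal of each sample in turn, the log2 difference ran from 1.26 to 1.40 for RNF43 and from 1.41 to 1.64 for WNT16.

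ZNRF3, the paralog of RNF43 with the same role at Frizzled (ENSG00000183579, chromosome 22, 28883592 to 29057487), was not called. It was at 14.15, 14.3 and 13.82 TPM in WT and 14.64, 15.01 and 12.7 TPM in CSE. These values overlap, and the log2 difference was -0.00067 (SE 0.0629). Its sign changed between settings, from -0.056 with mitochondrially encoded genes left out to 0.069 without CSE replicate 3.

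The order of the 2 ligase genes was opposite in the 2 groups. TPM corrects for length, so levels of the pair can be set side by side within a library, with a limit. Both genes overlap others on their own strand, and how such reads were counted is not known, so the ratio may depend on it. RNF43 was at 0.615, 0.592 and 0.581 of the TPM of ZNRF3 in WT and at 1.54, 1.59 and 1.62 of it in CSE. The ratio was below 1 in every WT library and above 1 in every CSE library, with an SD of 0.0172 in WT and 0.0417 in CSE. RNF43 was picked for its rise and ZNRF3 was not called, so this separation restates how RNF43 was picked. The sum of both was 22.5 ± 0.556 TPM in WT and 36.4 ± 2.82 TPM in CSE.

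**Figure D2:**
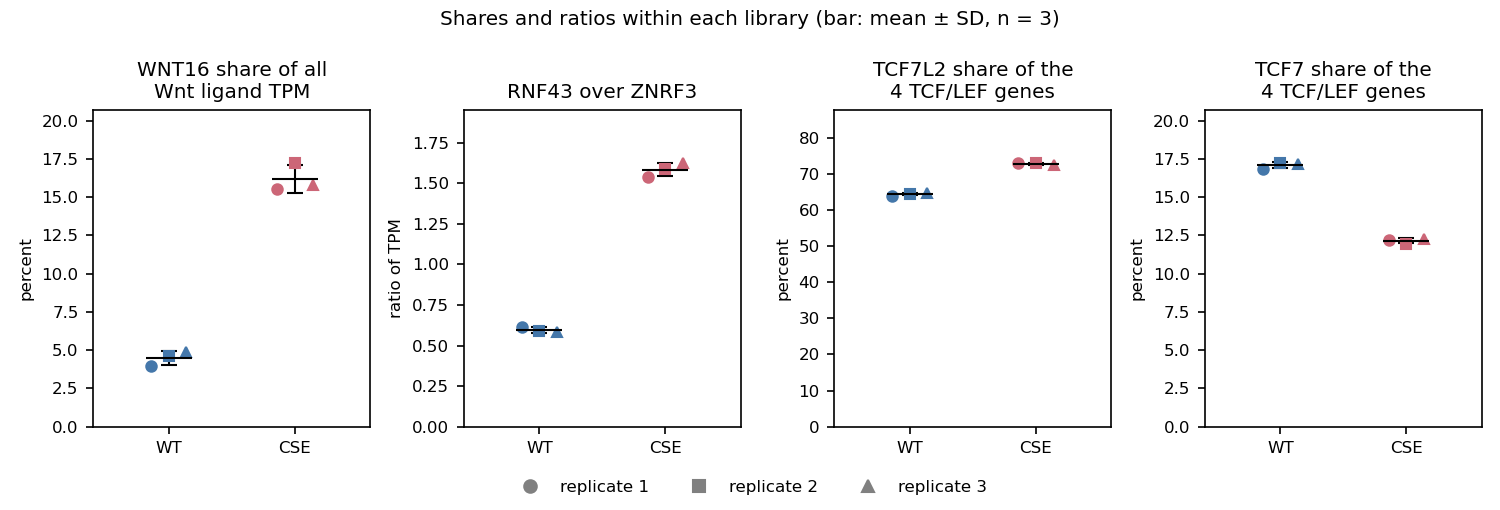
Shares and ratios within each library on axes that start at 0: the share of WNT16 in the TPM of all Wnt ligand genes (percent), the ratio of RNF43 to ZNRF3, and the shares of TCF7L2 and TCF7 in the TPM of the 4 TCF/LEF genes (percent), with symbols for the replicate number and bars for mean ± SD (n = 3). In all 4 panels the WT and CSE points lie apart, as in the ratio of RNF43 to ZNRF3 at 0.581 to 0.615 in WT and 1.54 to 1.62 in CSE.

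The R-spondin receptors were represented by LGR4. LGR4, the broadly expressed receptor (ENSG00000205213, chromosome 11, 27365961 to 27472775), had 10.58, 10.64 and 10.56 TPM in WT and 10.46, 10.62 and 8.88 TPM in CSE. The groups overlap, CSE replicate 3 was the lowest, and the log2 difference of -0.081 (SE 0.0675) was -0.0067 without that sample. LGR5, the marker of intestinal stem cells (ENSG00000139292, chromosome 12, 71439770 to 71586310), was listed at 0.21 TPM in each WT sample and at 0.11, 0.05 and 0.08 TPM in CSE. Every CSE sample was below every WT sample, at a level near 0 and with unknown depth. With low genes not filtered out, LGR5 was called lower (log2 difference -0.16, SE 0.0350). LGR4 held 89.5% to 93.1% of the TPM of LGR4, LGR5 and LGR6 together in WT and 92.7% to 96.4% in CSE.

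AXIN2 and NKD1, which feed back on the pathway inside the cell, were lower in CSE. AXIN2 is the inducible scaffold of the destruction complex and the usual readout of canonical signalling (ENSG00000168646, chromosome 17, 65528563 to 65561647). It had 5.13, 5.07 and 5.22 TPM in WT and 4.13, 4.55 and 4.16 TPM in CSE, without overlap. The means of 5.14 ± 0.0755 and 4.28 ± 0.234 TPM correspond to a 1.20-fold lower level (log2 difference -0.22, SE 0.0742).

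NKD1 binds Dishevelled and damps the pathway (ENSG00000140807, chromosome 16, 50548330 to 50649249). Its values were 6.42, 6.59 and 5.99 TPM in WT and 5.48, 5.67 and 4.83 TPM in CSE. The groups did not overlap, and NKD1 was 1.19-fold lower in CSE (6.33 ± 0.309 against 5.33 ± 0.440 TPM, log2 difference -0.21, SE 0.0747). Both calls were narrow. The call of AXIN2 ended without WT replicate 3 (log2 difference -0.21) or CSE replicate 1 (-0.20), and that of NKD1 without WT replicate 1 (-0.21), WT replicate 2 (-0.19) or CSE replicate 3 (-0.16). The call of NKD1 ended too when low genes were not filtered out.

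Of the 3 transcription factor genes TCF7 had by far the highest level. TCF7, which encodes TCF1 (ENSG00000081059, chromosome 5, 134114711 to 134151865), had 21.94, 21.94 and 21.7 TPM in WT and 21.4, 21.19 and 19.7 TPM in CSE. The CSE samples all lay below the WT samples, by little (log2 difference -0.072, SE 0.0523, not called, or -0.13 and called lower with mitochondrially encoded genes left out). SP5, a repressor that Wnt signalling induces (ENSG00000204335, chromosome 2, 170715351 to 170718078), had 1.72, 1.7 and 2.14 TPM in WT and 1.88, 1.68 and 2.38 TPM in CSE. These overlap (log2 difference 0.059, SE 0.104), and the difference was -0.035 without CSE replicate 3. LEF1 (ENSG00000138795, chromosome 4, 108047545 to 108168956) was at 0.03 TPM in each WT sample, at 0.03 TPM in CSE replicate 2 and listed at 0 in CSE replicates 1 and 3.

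By level, the order in WT was TCF7, ZNRF3, LGR4, RNF43, NKD1, AXIN2, WNT16, SP5, LGR5 and LEF1. In CSE it was RNF43, TCF7, ZNRF3, WNT16, LGR4, NKD1, AXIN2, SP5, LGR5 and LEF1. RNF43 moved from place 4 to 1 and WNT16 from place 7 to 4, and the other 8 genes kept their order among themselves. In CSE the values of RNF43 (20.63 to 23.8 TPM) and TCF7 (19.7 to 21.4 TPM) overlap, as do those of ZNRF3 (12.7 to 15.01 TPM) and WNT16 (12.86 to 14.67 TPM), so the order within each of these pairs is not beyond their spread.

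CSE replicate 3 was the lowest of the CSE samples for 6 of the 8 members tested, namely RNF43, ZNRF3, WNT16, LGR4, NKD1 and TCF7. The share of all genes lowest in this library was not counted, so nothing about the members is read from it. Over all genes, 3518 were called higher with this library left out, against 3130 with it kept. Without CSE replicate 3, RNF43 and WNT16, picked for their rise, were still the members called higher. AXIN2 was the one called lower.

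The other canonical targets moved both ways. Of 27 target genes of beta-catenin and TCF that are not members, 20 were tested, and limma called 6 higher and 6 lower at an adjusted p under 0.05, while 8 did not pass. That is 30.0% in each direction, against 24.5% and 25.6% over all genes. Their median log2 difference was -0.092, against -0.0039 over all genes. The 7 targets not tested include the stem cell factor gene ASCL2, listed at 0 in 5 of the 6 libraries, and the protease gene MMP7, at 0.4, 0.5 and 0.75 TPM in WT and 0.98, 1.04 and 0.96 TPM in CSE.

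**Figure D3:**
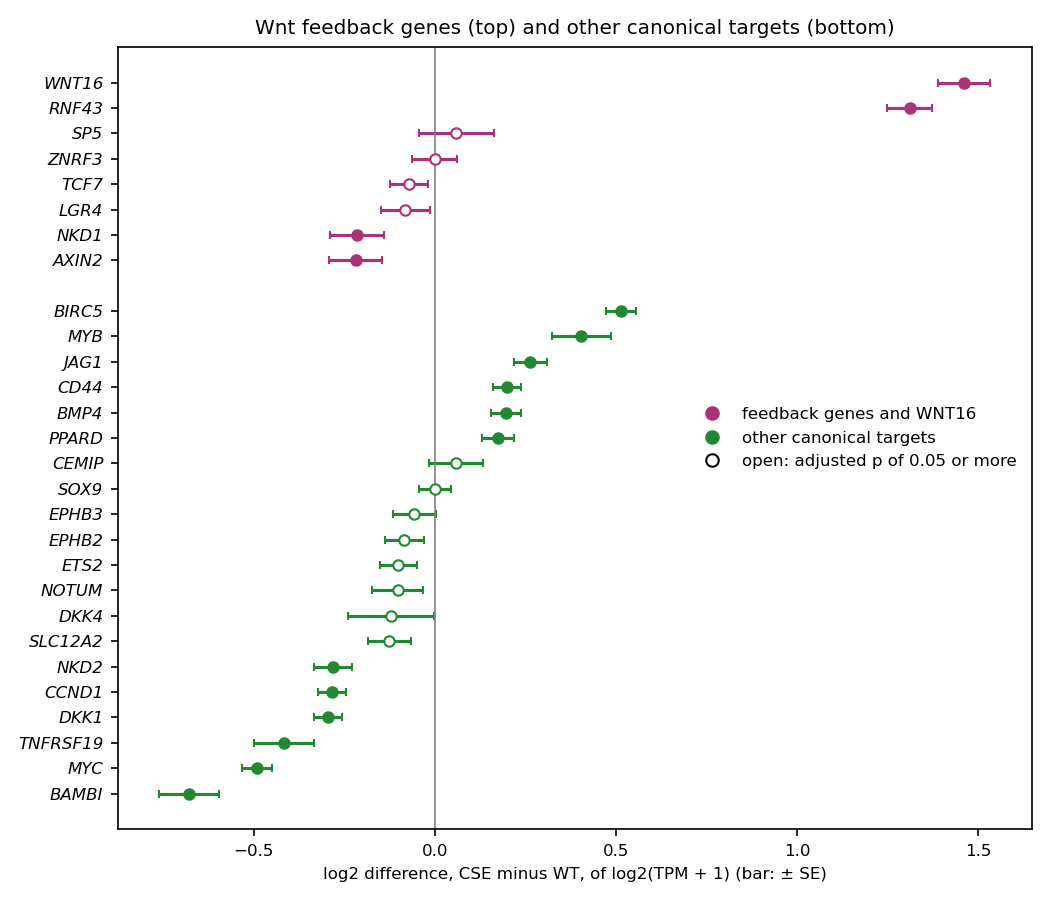
Difference of CSE from WT in log2(TPM + 1), with bars for ± SE, of the 8 members tested, at the top, and of the 20 other canonical targets tested, below, with filled points for an adjusted p under 0.05. WNT16 (1.46) and RNF43 (1.31), which were picked for their rise, lie far to the right of all other points. Among these, the targets run from -0.68 for BAMBI to 0.51 for BIRC5.

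BAMBI, which encodes a decoy receptor of BMP and TGF-beta signalling, fell most of these targets. BAMBI went from 14.01, 13.36 and 12.37 TPM in WT to 7.04, 7.32 and 9.53 TPM in CSE (log2 difference -0.68, SE 0.0820, limma adjusted p = 6.25e-07). MYC, the growth-promoting transcription factor gene, fell from 466 ± 13.6 to 332 ± 19.6 TPM (difference -0.49, SE 0.0422, limma adjusted p = 4.31e-09). TNFRSF19, a receptor gene, fell from 4.24 ± 0.156 to 2.94 ± 0.280 TPM (difference -0.42, SE 0.0823, limma adjusted p = 0.000257). In all of them each CSE sample was below each WT sample.

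Among those that rose, BIRC5 came first. BIRC5 encodes survivin, which also works in mitosis, and went from 80.53, 79.68 and 77.92 TPM to 111.9, 112.2 and 117.22 TPM (log2 difference 0.51, SE 0.0402, limma adjusted p = 1.08e-09). MYB, a progenitor transcription factor gene, rose from 2.72 ± 0.0985 to 3.93 ± 0.222 TPM (difference 0.40, SE 0.0813, limma adjusted p = 0.000296). JAG1, a Notch ligand gene, rose from 42.8 ± 0.557 to 51.7 ± 2.18 TPM (difference 0.26, SE 0.0455, limma adjusted p = 5.77e-05). The rises were in 3 of 3 CSE samples for each of these genes. None of them came near the 2.66-fold of RNF43, which was picked for its rise. The 6 targets named kept their calls under all alternatives that tested them. With mitochondrially encoded genes left out, the targets numbered 7 higher and 9 lower of 21. Over all genes that setting called 2353 higher and 4548 lower of 13096, so calls moved towards lower there too.

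WNT16 was the only ligand gene called higher, and it was picked for its rise, so nothing is read from its call. Of the 18 other Wnt ligand genes 12 were tested, of which 8 fell and limma called 0 higher (also 0 at an unadjusted p under 0.05), with a median log2 difference of -0.27. That is 66.7% called lower, against 25.6% over all genes. No other setting called one higher except quantile normalization, which called WNT6 (log2 difference 0.15, limma adjusted p = 0.029). Fewer than 8 ligand genes, 6 or 7, were called lower without WT replicate 1, 2 or 3 or without CSE replicate 1 or 3, where WNT2B or WNT8B missed the threshold (without WT replicate 1 at limma adjusted p = 0.0806 and 0.063). WNT2B also missed it under quantile normalization (0.0559), and WNT8B without the filter (0.0509).

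**Figure D4:**
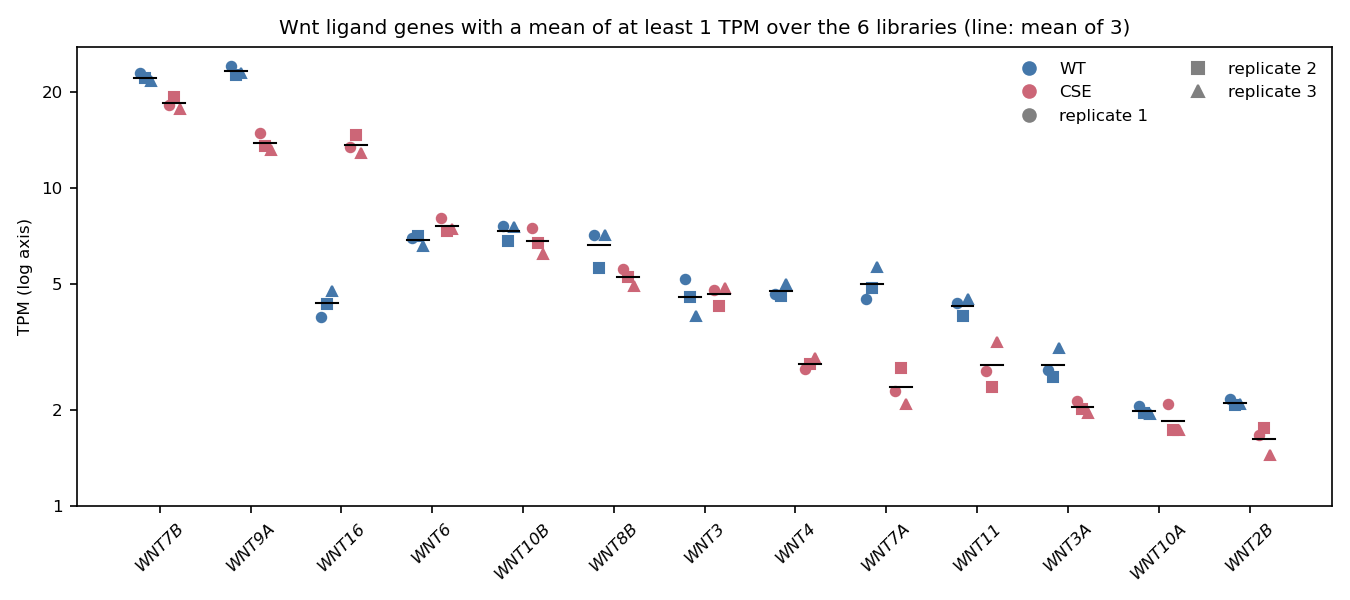
TPM (log axis) of the 13 Wnt ligand genes with a mean of at least 1 TPM over the 6 libraries, for WT (left points) and CSE (right points) of each gene, with symbols for the replicate number and a line at the mean of 3. WNT16 goes up from 4.34 to 13.7 TPM, and most of the others, such as WNT9A from 23.3 to 13.9 TPM, go down.

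WNT7A fell most, from 4.49, 4.86 and 5.66 TPM in WT to 2.3, 2.72 and 2.09 TPM in CSE (2.11-fold lower, log2 difference -0.83, SE 0.0918, limma adjusted p = 1.75e-07). WNT9A, with WNT7B the highest ligand gene in WT, fell from 23.3 ± 0.739 to 13.9 ± 0.907 TPM (1.68-fold lower, -0.71, SE 0.0572, limma adjusted p = 1.66e-09). WNT4 fell from 4.73 ± 0.218 to 2.80 ± 0.111 TPM (1.69-fold lower, -0.59, SE 0.0788, limma adjusted p = 2.36e-06). These 3 had lower values in all CSE samples than in any WT sample.

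WNT16 made up more of a smaller total in CSE. Summed over all 19 ligand genes the level was 96.9 ± 2.61 TPM in WT and 84.5 ± 2.72 TPM in CSE, and without WNT16 it was 92.6 ± 2.72 and 70.8 ± 2.35 TPM. The share in this sum of WNT16, which was picked for its rise, was 3.98%, 4.60% and 4.86% in WT libraries. In CSE libraries it was 15.6%, 17.2% and 15.8%. In CSE the values of WNT16 (12.86 to 14.67 TPM) and WNT9A (13.19 to 14.91 TPM) overlap, and WNT7B, named here for its level, was the highest at 18.5 ± 0.856 TPM.

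Secretion and R-spondin genes moved in different directions. WLS, which carries Wnt proteins to the cell surface, rose from 44.6 ± 1.97 to 55.7 ± 1.44 TPM (log2 difference 0.31, SE 0.0459, limma adjusted p = 7.7e-06). RSPO1, a ligand of the LGR receptors, was low and fell, from 1.3, 1.15 and 1.5 TPM to 0.66, 0.59 and 0.8 TPM (difference -0.46, SE 0.107, limma adjusted p = 0.00122). RSPO4 was called lower as well (-0.28, SE 0.0996, limma adjusted p = 0.0238). The call of RSPO4 ended without WT replicate 1 (-0.30, limma adjusted p = 0.0531), WT replicate 3 (-0.16, 0.198) or CSE replicate 3 (-0.23, 0.0943), without the filter (0.0898) and under quantile normalization (-0.22, 0.112). Of the 6 genes in this list 4 were tested, with 1 higher (25%) and 2 lower (50%), against 24.5% and 25.6% over all genes.

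Of 17 genes of Frizzled and other Wnt receptors and co-receptors 14 were tested, with 3 higher and 4 lower. That is 21.4% and 28.6%, against 24.5% and 25.6% over all genes, with a median log2 difference of -0.080. FZD4 fell from 11.8 ± 0.0520 to 8.24 ± 0.631 TPM (difference -0.47, SE 0.0650, limma adjusted p = 4e-06), and the co-receptor gene LRP6 from 23.5 ± 0.406 to 19.8 ± 1.70 TPM (difference -0.24, SE 0.0583, limma adjusted p = 0.00171). PTK7, a pseudokinase co-receptor gene, rose from 103 ± 3.77 to 124 ± 5.70 TPM (difference 0.27, SE 0.0434, limma adjusted p = 2.62e-05). Summed over the 10 Frizzled genes the level was 116 to 123 TPM in WT and 108 to 123 TPM in CSE, so the groups overlap.

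The remaining receptor calls were less firm. FZD7 was called lower (log2 difference -0.13, limma adjusted p = 0.0449), a call that ended without WT replicate 1 (-0.12, 0.113), WT replicate 2 (-0.11, 0.167), CSE replicate 1 (-0.15, 0.0583) or CSE replicate 3 (-0.094, 0.0981), without the filter (0.0745) and without the variance trend (0.0618). FZD5 was called lower (log2 difference -0.25, limma adjusted p = 0.00511), a call that ended without WT replicate 1 (-0.21, 0.0563). FZD6 (0.18, limma adjusted p = 0.0089) lost its call without CSE replicate 2 (0.12, 0.0908) and with mitochondrially encoded genes left out (0.13, 0.0708). FZD2 (0.14, limma adjusted p = 0.0451) lost its call without WT replicate 2 (0.089, 0.274), WT replicate 3 (0.15, 0.0684), CSE replicate 1 (0.10, 0.214) or CSE replicate 2 (0.15, 0.0502). It also lost the call with mitochondrially encoded genes left out (0.083, 0.216), without the filter (0.101) and without the variance trend (0.0789).

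Of 16 extracellular inhibitor genes 6 were tested, with 1 higher and 1 lower (16.7% each, against 24.5% and 25.6% over all genes). DKK1, a secreted blocker of LRP5 and LRP6 and itself a canonical target, was the most abundant of them and fell from 541.29, 530.59 and 500.23 TPM to 436.3, 429.15 and 416.52 TPM (log2 difference -0.29, SE 0.0386, limma adjusted p = 1.98e-06). FRZB, a decoy for Wnt proteins, was called higher at a low level, from 1.44 ± 0.225 to 1.99 ± 0.300 TPM (difference 0.29, limma adjusted p = 0.0231). Its groups overlap, and the call ended without WT replicate 1 (0.25, 0.0952), WT replicate 3 (0.26, 0.08), CSE replicate 2 (0.22, 0.118) or CSE replicate 3 (0.29, 0.0576).

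All 18 genes of Dishevelled and the destruction complex were tested, with 3 higher (16.7%) and 5 lower (27.8%), against 24.5% and 25.6% over all genes. Their median log2 difference was -0.0093. AMER1, a scaffold of APC at the membrane, had the largest difference, from 5.66, 6.01 and 5.63 TPM to 3.26, 3.25 and 2.81 TPM (difference -0.72, SE 0.0784, limma adjusted p = 1.38e-07). NKD2, the paralog of NKD1, fell from 29.1 ± 1.57 to 23.8 ± 0.740 TPM (difference -0.28, SE 0.0524, limma adjusted p = 0.000143), and the kinase gene CSNK1E fell (-0.25, limma adjusted p = 0.00012). CTNNB1 rose from 148 ± 2.68 to 168 ± 4.33 TPM (difference 0.18, SE 0.0384, limma adjusted p = 0.000523), and CSNK1A1, the kinase that primes beta-catenin for degradation, rose by 0.21 (limma adjusted p = 0.000154). These are mRNA values and say nothing of the amount of beta-catenin protein. TNKS2, a gene of a tankyrase that marks AXIN for degradation, was called higher (0.19, limma adjusted p = 0.0145), and lost its call without WT replicate 1 (0.18, 0.0687), CSE replicate 1 (0.14, 0.0831) or CSE replicate 2 (0.15, 0.0513). The call of TNKS2 ended too with mitochondrially encoded genes left out (0.13, 0.109), without the filter (0.0852) and without the variance trend (0.0594).

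**Figure D5:**
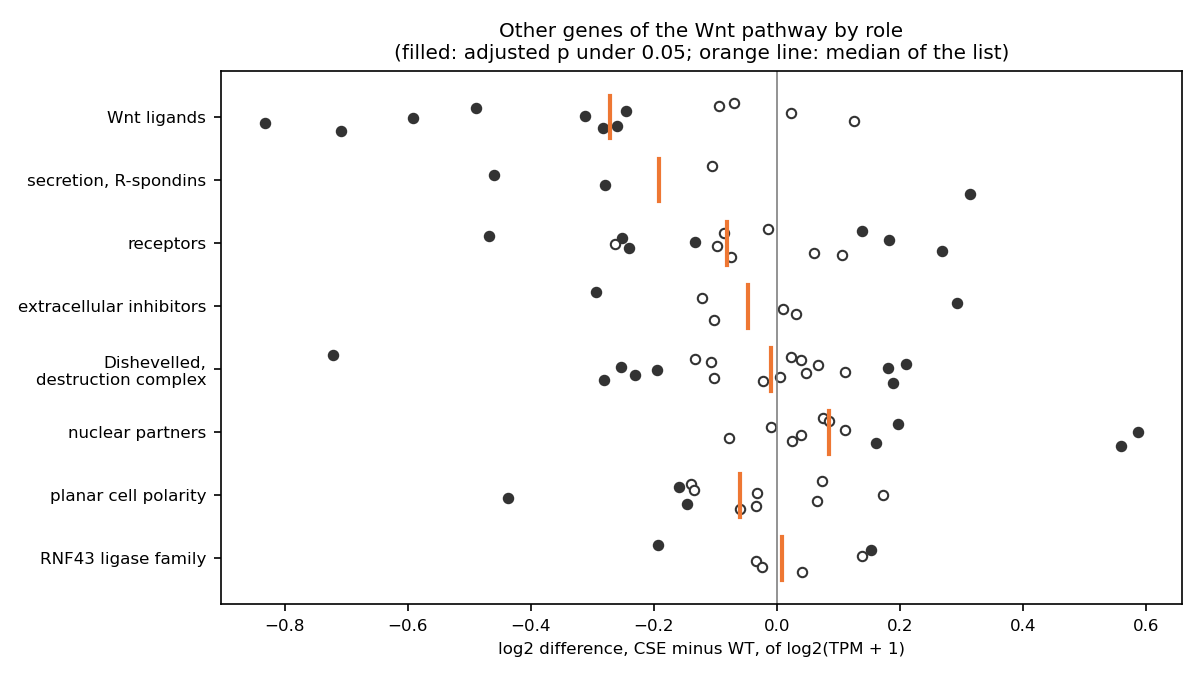
Differences of CSE from WT in log2(TPM + 1) for the other Wnt pathway genes tested, 1 point per gene in rows by role, filled for an adjusted p under 0.05, with an orange line at the median of each row. The ligand row lies mostly left of 0 (median -0.27), and TCF7L2 and TNIK stand out on the right of the nuclear partners (0.59 and 0.56).

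In the nuclear partners of beta-catenin, 4 of 11 genes tested rose and limma called 0 lower (also 0 at an unadjusted p under 0.05). That is 36.4% called higher, against 24.5% over all genes, where 25.6% were called lower. With mitochondrially encoded genes left out the corepressor gene TLE2 was called lower (log2 difference -0.14, limma adjusted p = 0.0105). TCF7L2, the main TCF factor gene of the intestinal epithelium, rose from 83.31, 82.22 and 81.85 TPM to 128.16, 129.23 and 116.29 TPM (1.51-fold, 0.59, SE 0.0438, limma adjusted p = 5.02e-10). TNIK, a kinase that works with TCF7L2, rose from 46.2 ± 0.338 to 68.7 ± 4.56 TPM (1.49-fold, 0.56, SE 0.0480, limma adjusted p = 4.13e-09). CTNNBIP1, an inhibitor of the binding of beta-catenin to TCF, rose by 0.20 (SE 0.0489, limma adjusted p = 0.00206). Without CSE replicate 3, 7 of 11 were called higher, with TCF7L1, BCL9 and BCL9L added.

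Set beside TCF7, this changed the makeup of the TCF/LEF factor genes. TCF7L2 held 64.0% to 64.7% of the TPM of TCF7, LEF1, TCF7L1 and TCF7L2 in WT and 72.5% to 73.0% in CSE. TCF7 held 17.1% ± 0.196 in WT and 12.1% ± 0.161 in CSE (SD, n = 3 each). LEF1 was at most 0.0237% of this sum in any library.

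In planar cell polarity, a branch that does not use beta-catenin, 3 of 11 genes tested were lower and limma called 0 higher (1 at an unadjusted p under 0.05). That is 27.3% lower, against 25.6% over all genes, where 24.5% were called higher. PRICKLE1 fell from 4.36 ± 0.169 to 2.97 ± 0.343 TPM (log2 difference -0.44, SE 0.0838, limma adjusted p = 0.000189) and SCRIB, a polarity scaffold gene, from 92.1 ± 2.94 to 83.1 ± 1.41 TPM (difference -0.15, limma adjusted p = 0.00524). CELSR2 was called lower (-0.16, limma adjusted p = 0.0316), a call lost without WT replicate 1 (-0.16, 0.0831), WT replicate 3 (-0.14, 0.102) or CSE replicate 3 (-0.095, 0.111), without the filter (0.0928) and without the variance trend (0.0616). Over all Wnt lists with each gene counted once, the ligase family left out, 18 of 92 genes tested were higher (19.6%) and 27 lower (29.3%), against 24.5% and 25.6% over all genes.

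The list of other transmembrane ligases of the same family as RNF43 and ZNRF3 holds 10 genes, of which 6 were tested. Of these, 1 was called higher and 1 lower (16.7% each, against 24.5% and 25.6% over all genes). RNF13 was called higher (log2 difference 0.15, limma adjusted p = 0.0124) and RNF128 lower (-0.19, limma adjusted p = 0.0296). The call of RNF13 ended without WT replicate 3 (0.11, 0.0796) and with mitochondrially encoded genes left out (0.098, 0.0597). That of RNF128 ended without WT replicate 1 (-0.14, 0.165), WT replicate 3 (-0.19, 0.0703) or CSE replicate 1 (-0.14, 0.158), without the filter (0.0969) and under quantile normalization (0.0869).

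The chromosomal neighbours of RNF43 and WNT16 had smaller differences than these genes. RNF43 and WNT16 were picked for their rise, so nothing is read from that gap. SUPT4H1, a transcription elongation factor gene, overlaps the last 594 bases of RNF43 on the same strand and went from 81.6 ± 2.45 to 89.6 ± 1.26 TPM (log2 difference 0.13, SE 0.0409, limma adjusted p = 0.00928). The call of SUPT4H1 ended without WT replicate 2 (0.12, 0.0607) or CSE replicate 1 (0.12, 0.0566), and with mitochondrially encoded genes left out (0.077, 0.0613). The gene AC004687.2, which spans SUPT4H1 and RNF43 on the same strand, and the antisense gene TSPOAP1-AS1 also overlap RNF43 in GENCODE 29 and were not analysed here. The way reads in such overlaps were counted is not given in the sources used here, so a share of the RNF43 value cannot be assigned. The same holds for AXIN2, which overlaps AC004805.1 on its strand, and for TCF7 and LGR5, which overlap SKP1 and TSPAN8 on the other strand. On the other side MTMR4 did not pass (-0.010, limma adjusted p = 0.89) and SEPTIN4 fell (-0.30, limma adjusted p = 0.000356), and beyond SUPT4H1 the gene MKS1 rose (0.29, limma adjusted p = 6.42e-05).

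FAM3C, a secreted protein gene, lies 7.75 kb beyond WNT16 on the other strand and rose from 176 ± 8.17 to 214 ± 5.32 TPM (1.21-fold, log2 difference 0.28, SE 0.0408, limma adjusted p = 7.95e-06). The next tested genes are much farther away. AASS rose by 0.29 (limma adjusted p = 0.00242) and ING3 by 0.22 (0.0121), and TSPAN12 did not pass (0.020, 0.847).

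By the distance between profiles of log2(TPM + 1) over 6 samples, centred on WT, the genes most like RNF43 among 10791 were SCG2 (0.169), HMMR (0.284) and WNT16 (0.349). For WNT16 they were DHRS2 (0.349), RNF43 (0.349) and SCG2 (0.395). SCG2, a granin gene of secretory vesicles, had 13.43, 13.1 and 12.89 TPM in WT and 32.17, 33.86 and 33.67 TPM in CSE, the same pattern of 2 groups as RNF43. With 2 groups of 3 samples the measure picks genes with a rise of equal size, so it is a description of size.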

How the data were processed

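Per the labels' protocols, total RNA of HCT116 was made into libraries with an mRNA-seq kit, 3 WT and 3 CSE. The deposited table holds TPM values, made by the authors, per gene and sample, rounded to 2 decimals. FastQC 0.11.2, Trimmomatic 0.36, HISAT2 2.0, bedtools 2.26.0 and GRCh38 are named per the submitters' processing notes. No source used here names the counter, annotation or use of strand, so reads of overlapping genes cannot be assigned.

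Genes with at least 1 TPM in at least 3 libraries (12793) were tested on log2(TPM + 1) with limma 3.58.1 in R 4.3.3 (two-sided, mean-variance trend, Benjamini-Hochberg threshold 0.05, no covariates). The procedure was tested on simulated data. Positions are from GENCODE 29, matched for 20224 of 20263 genes. The members and lists were chosen with earlier results of these data known. Named are all members, from each list up to 3 called genes with the largest rises and 3 with the largest falls, marker genes, the nearest 2 tested genes on each side of RNF43 and WNT16, and the 3 closest profiles. FZD7, WNT2B, WNT8B, WNT6, TLE2, TCF7L1, BCL9, BCL9L, ASCL2, MMP7 and WNT7B were named after their values were seen. Alternatives were pseudocount 0.1, no filter, a mean of at least 5 TPM, 2 other normalizations, no mitochondrially encoded genes, other variance priors, a replicate block and leaving out each library.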

Additional observations from a re-analysis of the deposited data

How the results depend on the processing

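RNF43 and WNT16 were called higher in all 15 alternatives. They were picked for their rise in these same libraries, so nothing is read from that. No result changed direction with its call. A mean of at least 5 TPM, which tests fewer genes, left 1 member called lower against 2, 17 pathway genes lower against 27 and 3 ligand genes lower against 8. Leaving out 1 library at a time gave 1 to 2 members lower, 4 to 7 nuclear partners higher (7 without CSE replicate 3) and 5408 to 6558 genes called over all. Quantile normalization called 1 ligand gene higher (WNT6), and leaving out mitochondrially encoded genes called 1 nuclear partner lower (TLE2). With mitochondrially encoded genes left out, 40 of 94 pathway genes and 3 of 8 members were called lower, and 4548 of 13096 over all genes. Higher calls made up 34.1% of calls over all genes in that setting against 48.9%. The cause of these shifts was not tested, beyond the smaller numbers of genes or samples. The replicate numbers did not pair the samples (correlation of deviations -0.0711, 0.0150 and -0.0883 for numbers 1 to 3). A fit with the replicate block called 6537 genes against 6407 and changed no member's call. TPM keeps no depth, so the precision of genes near 0, such as LGR5 and LEF1, is unknown.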
